A study of Homo sapiens with 12 samples.

Results

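The GPS2 knockdown background was the set of dual-sgRNA constructs that joined a sgRNA against GPS2 with a sgRNA against another gene. It held 4336 of the 1301881 constructs in a K562 CRISPR interference library, with 8 constructs for each of 542 partner genes. Members were chosen by name: a GPS2 sgRNA in either position of the construct and a sgRNA of another gene in the other. No partner was left out, and all 542 had a mean T0 count of at least 200 reads. GPS2 itself was picked as a background with earlier results of these data known, so counts and ranks of the GPS2 background are given as descriptions.

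K562 is a chronic myelogenous leukemia line with constitutive BCR-ABL signalling, and CRISPR interference represses transcription at the start site that a sgRNA addresses. Niraparib inhibits PARP1 and PARP2, enzymes that mark DNA breaks with ADP-ribose. Niraparib endpoint cultures received 2 µM for 3 days in the 2022 screen, and 2 µM raised to 3 µM from day 2 for 4 days in the 2023 screen. They and their reference cultures, which received the solvent DMSO, were harvested 18 days (2022) or 19 days (2023) after transduction, and T0 libraries were taken on day 9, before the drug. Each arm of each screen had 2 replicate cultures, so 4 cultures gave 12 libraries, of which 8 enter the niraparib response. All arms carried the same knockdown library and were puromycin selected. Knockdown of GPS2 was not measured, and both readouts are the abundance of constructs in surviving cells.

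GPS2 is a small subunit of the NCoR/SMRT corepressor complex, in which the deacetylase HDAC3 silences target genes. Outside that complex it is known as an inhibitor of the ubiquitin-conjugating enzyme UBC13, and through it of signalling by K63-linked ubiquitin chains and JNK. PARP inhibitors are known for trapping PARP1 on DNA and for killing cells that lack homologous recombination.

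GPS2 lies on chromosome 17 from 7312661 to 7315360 on the minus strand of GRCh38.p14. The promoter is shown because repression by CRISPR interference acts at the start site. RefSeq gives this promoter for GPS2 at chr17:7315311-7315610, minus strand, with the 50 bases from the start site in capitals and the 250 bases before it in lower case.
GPS2: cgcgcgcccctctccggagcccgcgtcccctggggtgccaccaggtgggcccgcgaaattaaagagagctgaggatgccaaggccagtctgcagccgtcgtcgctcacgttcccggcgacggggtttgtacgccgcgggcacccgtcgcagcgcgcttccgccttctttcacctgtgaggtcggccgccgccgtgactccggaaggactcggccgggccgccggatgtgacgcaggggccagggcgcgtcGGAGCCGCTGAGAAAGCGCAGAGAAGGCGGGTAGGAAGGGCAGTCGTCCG
Going by the positions in their names, the 2 GPS2 sgRNAs lie 5 bases apart on the same strand. They therefore target overlapping sites and are not independent of each other. The names do not state a build, so the sgRNAs were not placed in the promoter.

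GPS2 paired with non-targeting sgRNAs gave the level against which every partner was set. For each 1000 reads of constructs with 2 non-targeting sgRNAs, the 220 constructs of GPS2 with a non-targeting sgRNA had 106, 109, 116 and 116 reads at the niraparib endpoint. The same cultures had 136, 143, 153 and 153 at the reference endpoint, and 103, 103, 102 and 103 at T0. The values follow the order 2022 replicate 1, 2022 replicate 2, 2023 replicate 1 and 2023 replicate 2, which holds for all lists of 4 values below. GPS2 constructs were less abundant under niraparib than in reference in all 4 cultures, and both endpoints stood above T0.

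On the log2 scale, the response of GPS2 alone (niraparib over reference, relative to the controls) was -0.36, -0.40, -0.40 and -0.39, with a mean of -0.39 ± 0.02 (SD, n = 4). Growth without drug (reference over T0) was 0.40, 0.47, 0.58 and 0.57, with a mean of 0.51 ± 0.09. Scaled by TMM in place of the controls, growth was 0.93 and the response -0.40. In edgeR's test 69.4% of 598 single genes and controls passed in response (39% higher, 30.4% lower) and 74.2% in growth (3.51% higher, 70.7% lower). Of the 543 genes of the library, 1 had higher growth than GPS2, and 474 had a higher response. That gene was C12orf66, known as KICS2, which helps hold back mTORC1 when nutrients are scarce. From T0 to the niraparib endpoint, GPS2 constructs were still 0.12 ± 0.07 log2 above the controls (SD, n = 4). GPS2 knockdown thus had a growth advantage without drug, and less of it was left under niraparib. Scaled by the constants of the deposited scores, which differ between the 2 endpoints, the response of GPS2 alone was -0.32 ± 0.03 (SD, n = 4).

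The question put to each partner was whether its niraparib response differed when GPS2 was also repressed. The response of a partner in the GPS2 background was the niraparib over reference change of GPS2 with that partner, relative to GPS2 with non-targeting sgRNAs. The response interaction is this value minus the response of the partner with non-targeting sgRNAs. An interaction of 0 means that the niraparib over reference changes of both knockdowns multiplied. A negative one means that the change of the pair was below that product, and a positive one that it was above. This is relative to the reference endpoint, so it does not give the level of the pair at the niraparib endpoint.

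In edgeR's quasi-likelihood test, 211 of 542 partners passed an adjusted p of 0.05, 142 higher and 69 lower. Over all 175793 pairs of the library, 16.3% passed, 10.3% higher and 6.01% lower. These include 29398 pairs of a gene with a single non-targeting sgRNA. Over the 146395 gene pairs alone, 19.3% passed, 12.3% higher and 7.08% lower. Nothing is read from the difference, because GPS2 was chosen with such results in view. As a control, GPS2 was set with each of the 55 non-targeting sgRNAs in turn. None of these 55 passed, 4 had an unadjusted p below 0.05, and their interactions ran from -0.12 to 0.12. Their counts add up to the GPS2 total that sets their expected counts, so they centre near 0 by construction and give no error rate for partners. Of the 211 partners, 195 had the same sign in all 4 replicates, the same ones that the calls were made from. Over all 542 partners, 277 had. Without 2022 replicate 1, in which PARP1 and several recombination genes stood apart, 108 were higher and 64 lower. Without 2022 replicate 2, 91 were higher and 54 lower, and limma on construct log2 ratios called 44 higher and 23 lower. The median SD over replicates was 0.08 log2 across partners, and the median interaction was 0.05.

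Nearly all calls made in either screen kept their direction in the other, which shares constructs but no library with it. Fitted on 2022 alone, 57 partners were lower, and all 57 had a mean interaction below 0 in 2023, where 35.1% of all partners did. Another 68 were higher in 2022, of which 66 were above 0 in 2023, where 64.9% of all partners were. Fitted on 2023 alone, 44 were lower and 69 higher, and 43 and 67 of them kept that sign in 2022. The same 34 partners were lower and the same 30 higher in both screens, and none was called in opposite directions. A direct test of the difference between the screens, 2023 minus 2022, called 0 of 542 partners by edgeR, with 30 at an unadjusted p below 0.05 (0.0102% called over all pairs, 0.00967% higher and 0.000569% lower).

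Partner responses were spread more widely in the GPS2 background than alone. The slope of the response in the GPS2 background on the response alone, over 542 partners, was 1.24, 1.25, 1.22 and 1.19, with a mean of 1.22 ± 0.02 (SD, n = 4). It was the highest of 543 backgrounds, whose median was 0.846, although DNPH1 (1.22), AUNIP (1.22) and C4orf27 (1.21) were within the replicate spread of GPS2. AUNIP is a cofactor of end resection. A slope above 1 was found in 93 backgrounds. Against a curve through all GPS2 pairs, which takes out this slope, 8 named partners turned sign, PARP1, PPP2R1A, PPP2R2A, SHMT2, BRCA1, BRCA2, TP53BP1 and XRCC1. Growth gave a like picture, with a slope of 1.20 ± 0.01 against a median of 0.808 over backgrounds.

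The split by partner shows the same spread. Of 180 partners with a lower response alone, 65 had a lower interaction and 9 a higher one. Of 233 partners with a higher response alone, 117 had a higher interaction and 0 a lower one. Among the 129 partners not past the threshold alone, 16 were higher and 4 lower, the 4 being ATM, CDK2, NR1D1 and RNF168. Of the 147 partners with growth alone below -1, 83 were higher and 1 lower. The interaction and the response alone share the counts of the partner with non-targeting sgRNAs, so these counts describe the pattern and do not test it. When both were fitted together, the interaction changed by 0.18 ± 0.02 per unit of response alone and by -0.09 ± 0.01 per unit of growth alone (SD, n = 4 replicates).

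Base excision and single-strand break repair genes had a median interaction of -0.24 over 5 genes, against 0.05 over all 542 partners. This pathway cuts out damaged bases and seals the nicks that PARP1 senses. Lower interactions were found for 4 of 5 genes, and none was higher, where 12.7% of all partners of GPS2 were lower and 26.2% higher. Fitted on 2022 alone 4 were lower, and on 2023 alone 2. POLB, the polymerase that fills the repair gap, had the lowest interaction of all partners. In reads, GPS2 with POLB had 1545, 1690, 826 and 750 at the niraparib endpoint, against 12008, 11648, 5848 and 5457 at the reference endpoint. Its response was -2.16, -2.06, -2.64 and -2.54 in the GPS2 background, against -1.74, -1.75, -2.07 and -2.07 with non-targeting sgRNAs. The response was lower in the GPS2 background in every replicate, and the interaction was -0.44 ± 0.11 (SD, n = 4).

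LIG3, the ligase that works with XRCC1, responded with -1.11, -1.32, -1.34 and -1.45 in the GPS2 background, against -0.83, -0.94, -1.03 and -1.04 alone. The groups of 4 did not overlap, and the interaction was -0.35 ± 0.06. LIG1, the replicative ligase, had an interaction of -0.24 ± 0.07. XRCC1, the scaffold of the pathway, was at -0.16 ± 0.12, with -0.28 and -0.24 in 2022 and -0.01 and -0.12 in 2023. Growth with POLB differed little between the backgrounds, with a mean of -0.03 in the GPS2 background and 0.02 alone.

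DNPH1, which hydrolyses an abnormal nucleotide before it enters DNA, stood beside POLB in size. Its response was -2.42, -2.17, -2.19 and -2.21 in the GPS2 background and -2.01, -1.83, -1.81 and -1.79 alone, an interaction of -0.39 ± 0.04. These 2 sets of values did not overlap. C4orf27, now named HPF1, directs PARP1 and PARP2 to modify serine. It had a response of -1.59, -1.58, -2.02 and -1.82 in the GPS2 background against -1.31, -1.32, -1.56 and -1.58 alone, and its interaction was -0.31 ± 0.10.

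PARP1, the target of the drug, moved the opposite way. GPS2 with PARP1 had 21107, 20659, 18864 and 15889 reads at the niraparib endpoint, against 4476, 7785, 3778 and 3609 at the reference endpoint. Its response was 3.04, 2.13, 2.50 and 2.46 in the GPS2 background, against 2.61, 1.79, 2.08 and 2.08 with non-targeting sgRNAs. It was higher in the GPS2 background in all 4 replicates, and the interaction was 0.40 ± 0.04. In 2022 replicate 1 the response stood well above the other cultures in both backgrounds, while the interaction in that replicate, 0.43, was close to the others, at 0.34, 0.43 and 0.39. Set against a curve through all GPS2 pairs, in place of the plain product, PARP1 lay at -0.45. PARP2, the other target, had an interaction of 0.01 ± 0.08 and did not pass (adjusted p = 0.859, edgeR). PARG, which removes ADP-ribose chains, and CHD1L, a remodeller recruited by them, did not pass either, at 0.08 and -0.03.

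Fanconi anemia genes repair crosslinks through a core ubiquitin ligase and its substrates FANCD2 and FANCI. Of 15 genes, 13 were lower and none was higher, where 12.7% of all partners were lower, with a median interaction of -0.21. The list had a median response alone of -0.80. Among the 159 partners with a lower response alone and growth alone of -1 or above, 64 were lower and 5 higher, with a median of -0.07. In the core ligase, FANCB was at -0.35 ± 0.08, FANCA at -0.28 ± 0.04, FANCF at -0.25 ± 0.07 and FANCG at -0.13 ± 0.11. FANCB shares a start region with MOSPD2, another library gene whose start lies 352 bases away, so a FANCB sgRNA may also repress MOSPD2. The conjugating enzyme UBE2T was at -0.30 ± 0.04, and the substrates FANCI and FANCD2 at -0.31 ± 0.05 and -0.26 ± 0.11. UBE2T responded with -1.06, -1.29, -1.22 and -1.31 in the GPS2 background, against -0.71, -0.97, -0.96 and -1.04 alone, and these values did not overlap. WDR48, which aids deubiquitination of FANCD2, and C17orf70, a core subunit, did not pass, with interactions of -0.00 and -0.01. Within single screens, 11 of the 15 were lower in 2022 and 11 in 2023.

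Homologous recombination repairs a broken strand by copying the sister chromatid. Of 27 genes, 12 were lower, where 12.7% of all partners were, and 15 did not pass, with a median of -0.10. In 2022 alone 10 were lower, and in 2023 alone 11. The list had a median response alone of -0.53 and a median growth alone of -0.39. Among the 159 partners with a lower response alone and growth alone of -1 or above, 64 were lower and 5 higher, with a median of -0.07. Lower interactions were found among factors of strand exchange. RAD54L, the motor of strand exchange, responded with -1.20, -1.98, -2.32 and -1.99 in the GPS2 background, against -0.76, -1.62, -1.69 and -1.73 alone. The interaction was below 0 in all 4 replicates, at -0.42 ± 0.15, and 2022 replicate 1 stood apart with a weaker response in both backgrounds. SWI5, a strand exchange cofactor, responded with -0.73, -1.04, -1.22 and -1.15 in the GPS2 background, against -0.42, -0.74, -0.76 and -0.72 alone. SWI5 was lower in the GPS2 background in each replicate, at -0.37 ± 0.08, while its partner SFR1 was at -0.08 ± 0.08 and did not pass (adjusted p = 0.124, edgeR). MND1 responded with -0.74, -1.10, -1.03 and -1.16 in the GPS2 background, against -0.43, -0.77, -0.70 and -0.76 alone. MND1 and PSMC3IP, which act as a pair in strand invasion, had interactions of -0.34 ± 0.04 and -0.27 ± 0.13. RAD51B responded with -1.14, -1.56, -1.31 and -1.45 in the GPS2 background, against -0.84, -1.15, -1.05 and -1.08 alone. RAD51B was at -0.33 ± 0.07 and RAD51D at -0.22 ± 0.11, whereas RAD51C (-0.09), XRCC2 (-0.10) and XRCC3 (-0.01) did not pass.

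BRCA2, a mediator of recombination, responded with -1.45, -2.75, -2.94 and -2.91 in the GPS2 background, against -1.34, -2.33, -2.60 and -2.59 alone. Its interaction was -0.30 ± 0.13, and 2022 replicate 1 had the smallest, -0.11. Against the curve through all GPS2 pairs, BRCA2 lay at 0.02 and BRCA1 at 0.11. ZAR1L, whose start lies 145 bases from that of BRCA2, was at -0.40 ± 0.15. PALB2, the bridge between BRCA1 and BRCA2, was at -0.20 ± 0.16. BRCA1 had interactions of -0.00 and -0.05 in 2022 and -0.30 and -0.39 in 2023, a mean of -0.19 ± 0.19 that passed (adjusted p = 0.00428, edgeR). BRCA1 did not pass without 2023 replicate 1 or without 2023 replicate 2. The 2 screens did not overlap for BRCA1, and the test of their difference did not pass. BARD1, the partner of BRCA1, had the strongest response alone and an interaction of 0.18, -0.69, -0.25 and -0.05, which did not pass (adjusted p = 0.159, edgeR). RBBP8, the resection factor CtIP, responded with -1.84 in the GPS2 background and -1.79 alone, an interaction of -0.04 ± 0.08 that did not pass. AUNIP was at -0.15 ± 0.07, C17orf53, the HROB helicase loader, at -0.17 ± 0.06, and MCM9, its helicase, at -0.13 ± 0.04.

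MCTS1 was also among the 12 partners with the lowest interactions. It recycles ribosomal subunits and restarts translation. MCTS1 responded with -0.58, -0.91, -0.76 and -0.69 in the GPS2 background, against -0.28, -0.55, -0.37 and -0.41 alone, an interaction of -0.33 ± 0.05. Adjusted p-values of these 12 lay between 3.15e-16 and 2.77e-08 in edgeR's quasi-likelihood test.

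Of the 12 partners with the highest interactions, 10 had growth alone below -1, against 0 of the 12 lowest. IPO13, an importin, responded with 0.58, 1.20, 1.05 and 0.92 in the GPS2 background and with 0.44, 0.38, 0.46 and 0.52 alone, an interaction of 0.49 ± 0.29. The groups did not overlap, although replicate 1 of 2022 lay close, at 0.14, and IPO13 did not pass without 2022 replicate 2. ATXN10, an ataxin with a role in cytokinesis, responded with 1.05, 1.13, 0.68 and 1.06 in the GPS2 background, against 0.45, 0.46, 0.56 and 0.58 alone. ATXN10 was at 0.47 ± 0.24, and 2023 replicate 1 had the smallest interaction, 0.13. HJURP, which deposits the histone CENP-A at centromeres, was at 0.42 ± 0.27, with 0.59, 0.19, 0.71 and 0.19 in the 4 replicates. SSBP1, which coats mitochondrial single-stranded DNA, was at 0.42 ± 0.27 with 0.01 in 2023 replicate 2.

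PARS2, a mitochondrial prolyl-tRNA synthetase, was at 0.35 ± 0.15, and MCM10, which activates the replicative helicase, at 0.33 ± 0.09. MBTPS2, the protease that releases sterol-responsive transcription factors, responded with 0.51, 0.90, 1.14 and 1.12 in the GPS2 background, against 0.34, 0.53, 0.77 and 0.72 alone. The response was higher in the GPS2 background in each replicate, at 0.33 ± 0.10. NOP10, a subunit of the pseudouridylation complex, was at 0.32 ± 0.13. CNOT3, a scaffold of the deadenylase complex, had no marked response alone (0.11, -0.00, -0.09 and -0.07) and 0.48, 0.25, 0.23 and 0.27 in the GPS2 background. Its interaction was 0.32 ± 0.05. Adjusted p-values of the 12 lay between 3.53e-23 and 0.00346 in edgeR's test. Scaled by the constants of the deposited scores, IPO13, ATXN10, HJURP and SSBP1 were at 0.34, 0.38, 0.31 and 0.31. Their lowest replicates were then at -0.02, -0.05, -0.08 and -0.15. On that scale MBTPS2 was at 0.17, CNOT3 at 0.33, MTHFD1 at 0.37 and PARP1 at 0.53. Constructs of slow-growing partners were few at the end: the lowest count over a GPS2 pair was 25 to 78 reads at the niraparib endpoint, 44 to 94 at the reference endpoint and 173 to 252 at T0.

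Mitochondrial one-carbon and serine metabolism supplies formate and glycine for nucleotide synthesis. All 6 genes measured were higher, where 26.2% of all partners were, with a median interaction of 0.26. Among the 115 partners with a higher response alone and growth alone below -1, 76 were higher, with a median of 0.20. In 2022 alone 4 were higher, and in 2023 alone 4. SHMT2, which splits serine in mitochondria, responded with 0.90, 0.99, 1.25 and 1.40 in the GPS2 background, against 0.43, 0.84, 1.04 and 1.03 alone. The interaction of SHMT2 was above 0 in every replicate, at 0.30 ± 0.15, but against the curve through all GPS2 pairs SHMT2 lay at -0.012. SFXN1, the mitochondrial serine carrier, was at 0.25 ± 0.03, and MTHFD2, a mitochondrial folate dehydrogenase, at 0.28 ± 0.09. MTHFD1, the cytosolic enzyme of the same cycle, responded with 0.74, 0.61, 0.58 and 0.84 in the GPS2 background, against 0.25, 0.30, 0.31 and 0.41 alone. The MTHFD1 values did not overlap. Its interaction was 0.37 ± 0.10, with MTHFD1L at 0.17 ± 0.10 and the serine-making PSPH at 0.18 ± 0.10. These genes also had slow growth alone, with a median of -1.31, and a median growth interaction of -0.33, and the part of that in the response interaction was not tested.

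PP2A and PP4 phosphatases gave 2 higher and 1 lower of 5 genes, where 26.2% of all partners were higher and 12.7% lower, so the counts are near those shares. PPP2R1A, the PP2A scaffold, responded with 1.09, 1.03, 1.39 and 1.25 in the GPS2 background, against 0.68, 0.84, 0.99 and 1.00 alone, an interaction of 0.31 ± 0.11. PPP2R2A, a regulatory subunit, was at 0.19 ± 0.08, and PPP4C, the catalytic subunit of PP4, at -0.15 ± 0.02. The catalytic subunit PPP2CA was at 0.11 ± 0.09 and did not pass (adjusted p = 0.0553, edgeR). The COP9 signalosome, which deactivates cullin ligases, had 2 higher genes of 5, also near the 26.2% of all partners, COPS3 at 0.16 ± 0.05 and COPS2 at 0.13 ± 0.03. In either screen alone 0 of the 5 passed in edgeR. COPS3 did not pass without 2022 replicate 1 or without 2023 replicate 2, and COPS2 did not pass without 2022 replicate 2. Both responded with less loss in the GPS2 background, as COPS2 gave -0.14 there and -0.27 alone.

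The checkpoint kinase ATR, which restrains firing of origins under replication stress, was an exception among genes with a lower response alone. It responded with -0.43, -0.85, -0.69 and -0.43 in the GPS2 background and with -0.69, -0.96, -0.90 and -0.94 alone, an interaction of 0.27 ± 0.17. The loss was smaller in the GPS2 background in each replicate, but ATR did not pass in 2022 alone or without 2023 replicate 2. Scaled by the constants of the deposited scores, its interaction was 0.16, -0.06, 0.10 and 0.38, a mean of 0.14 ± 0.18. ETAA1, an activator of ATR, was at -0.21 ± 0.04, and the other 9 genes of the ATR list did not pass. TP53BP1, which shields breaks from resection, was at 0.09 ± 0.08 (adjusted p = 0.048, edgeR), and did not pass in 2023 alone or without 2022 replicate 1, 2022 replicate 2 or 2023 replicate 2. RIF1, its effector, was at -0.17 ± 0.04, and RNF168, the ligase that recruits it, at -0.15 ± 0.14, which did not pass without 2022 replicate 1. RNF168 had a growth interaction of 0.14, and its interaction from T0 to the niraparib endpoint was -0.02 ± 0.12. In non-homologous end joining, LIG4 was at 0.10 ± 0.09 and the other 5 genes did not pass. LIG4 did not pass in 2023 alone or without 2022 replicate 1, 2022 replicate 2 or 2023 replicate 2.

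Replication genes gave 3 higher and 1 lower of 21, below the 26.2% and 12.7% of all partners, with a median of 0.02. Of 3 RNase H2 genes, RNASEH2B was lower, at -0.13 ± 0.05, and did not pass without 2023 replicate 1. Of the complex that GPS2 belongs to, HDAC3 was in the library, with 0.04 ± 0.02, and did not pass (adjusted p = 0.509, edgeR). No gene of K63 ubiquitin and TRAF signalling on the list was in the library. Among RAS and kinase brakes, LZTR1 passed at -0.09 ± 0.09, though not without 2022 replicate 2 or without 2023 replicate 1, and the other 5 did not. C12orf66 was at -0.12 ± 0.04 and did not pass without 2022 replicate 2. TSC1, which also restrains mTORC1, was at -0.08 ± 0.05 and did not pass. All 6 Polycomb genes were not past the threshold, and their median was -0.00.

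The GPS2 background also changed growth without drug. In the growth interaction, computed likewise from reference over T0, 318 of 542 partners passed, 311 lower and 7 higher, against 36% of all pairs (33% higher and 3% lower). Over gene pairs alone, 42.3% passed (39.2% higher and 3.11% lower). Growth shares the reference libraries with the response, so a low reference count lowers one and raises the other. The lowest were DCTN3, a dynactin subunit (-0.79 ± 0.18), GEMIN2 of the SMN complex (-0.78 ± 0.26), the glycolytic PGK1 (-0.78 ± 0.15), IPO13 (-0.76 ± 0.25), MCM2 of the replicative helicase (-0.72 ± 0.28) and the dynactin subunit DCTN1 (-0.70 ± 0.07). DCTN1 grew with -2.15, -2.19, -2.32 and -2.55 in the GPS2 background, against -1.43, -1.51, -1.71 and -1.76 alone. The values did not overlap.

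The 7 higher growth interactions were small. CREBBP, a histone acetyltransferase, was at 0.18 ± 0.08, and HDAC1, a deacetylase, at 0.17 ± 0.06. HDAC1 grew with 0.02, -0.12, -0.11 and -0.08 in the GPS2 background, against -0.24, -0.23, -0.25 and -0.25 alone, so the values did not overlap. PPP2R2A was at 0.16 ± 0.10, RNF168 at 0.14 ± 0.08, LAMTOR5 of the Ragulator at 0.11 ± 0.04, the nuclease subunit ERCC1 at 0.08 ± 0.02 and PIK3CA at 0.07 ± 0.06. RNF168 did not pass without 2022 replicate 1, and ERCC1 did not without either 2023 replicate. HDAC3 had a growth interaction of -0.09 ± 0.09, which passed as lower (adjusted p = 0.0284, edgeR).

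Growth and response interactions add to the interaction from T0 to the niraparib endpoint. It was below 0 for all 69 partners with a lower response interaction, with a median of -0.27. Of the 142 with a higher response interaction, 103 were also below 0 and 39 above, with a median of -0.06, against -0.09 over all partners, of which 410 of 542 were below 0. POLB was at -0.49 ± 0.15 and IPO13 at -0.28 ± 0.34 from T0 to the niraparib endpoint, although their response interactions had opposite signs. PARP1 was at 0.27 ± 0.04 and PPP2R2A at 0.34 ± 0.15, so with these partners the pair stood above its product at the niraparib endpoint. ATXN10, HJURP, SSBP1, PARS2 and NOP10 lay between -0.26 and -0.16 and MBTPS2 at -0.34. PPP2R1A was at -0.14 and MCM10 at -0.13. MTHFD1 was at -0.00 ± 0.18 and CNOT3 at 0.01 ± 0.04, with growth interactions of -0.37 and -0.31.

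Constructs of each kind were compared within the GPS2 background. Over 542 partners, interactions measured with the first and the second GPS2 sgRNA had a Pearson r of 0.72, across partners that are not independent replicates, and 209 of the 211 called partners had the same sign with both. With GPS2 in the first and in the second position, r was 0.77 and 210 of 211 had the same sign. POLB was at -0.52 with the first sgRNA and -0.38 with the second. FANCB was less even, at -0.54 and -0.19. Each pair of values subtracts the same counts of the partner with non-targeting sgRNAs, and the calls were made from the sum of both, so the likeness is a description and no support for the calls.

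Of the other 542 backgrounds, C12orf66 had response interactions most like those of GPS2, with a Pearson r of 0.72 over 541 partners. ETAA1, CAND1, RHOXF2 and C4orf27 followed at 0.67, 0.67, 0.67 and 0.66. C12orf66 also had high growth alone (0.75) and a response alone of -0.44, close to GPS2, and a slope of 1.16 ± 0.03. ETAA1 shared the slope, at 1.16 ± 0.02, with growth alone of -0.03 and a response alone of -0.23. The interactions of all these backgrounds subtract the same response of the partner alone and come from the same libraries, so the correlations are a description with no test.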

How the data were processed

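The deposited tables hold raw counts of reads per dual-sgRNA construct, made by the authors from PCR-amplified genomic DNA. Bowtie2 2.3.4.1 is named in the submitters' processing notes without its role. The authors' deposited log2 scores equal log2 ratios divided by a constant (7.19 to 8.04 for growth, 4.98 to 5.40 under niraparib), recomputed from the counts with 10 added. All values here start from the counts. Libraries held 183 to 461 megareads, and 1 GPS2 pair had a median of 2142 to 6416 reads. PCR reads without molecular identifiers are not independent molecules.

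Counts were summed per gene pair over both orders and all sgRNA pairs. The expected count was the product of both genes with non-targeting sgRNAs over that of 2 non-targeting sgRNAs in the same library. Its log was the offset in edgeR 4.0.16 (R 4.3.3), with a block for each replicate culture, which the labels say was divided into the arms, and 1 niraparib term over both screens. The pairing rests on the labels: a check of it over 177018 pairs, for niraparib and reference, gave an r of 0.146 in 2022 and 0.0743 in 2023. Adjustment was by Benjamini-Hochberg over all 175793 pairs whose T0 counts averaged 200 or more, at a threshold of 0.05. The coefficient of biological variation in the response was 5.86%, from 3 residual degrees of freedom. Values per replicate had 0.5 added to pair counts, and slopes were fitted by least squares. In simulated data of 20000 pairs, 78% of 100 response interactions of 0.3 log2 were found, and 9 of 19800 null pairs were called. The simulation gave all pairs the same dispersion, so its false calls are no rate for the data. In the data, 376 of 29398 pairs of a gene with a single non-targeting sgRNA were called in response (1.28%). In growth, 1403 of them were called (4.77%). The counts of these pairs add up to the totals that set their expected counts, so the 2 shares are no error rates for gene pairs. Limma 3.58.1 and DESeq2 1.42.0 served as alternatives.

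GPS2, the gene lists and the tests were chosen with earlier results of these data known. Partners were named by rule: the 12 lowest and 12 highest response interactions past the threshold with the same sign in all replicates, the 6 lowest and 6 highest in growth, PARP1, PARP2, C4orf27, BRCA1, BARD1, BRCA2 and TP53BP1, and up to 4 of each list. Other members named beside them, the 4 partners lower without a response alone, and PIK3CA were chosen after their values were seen. The 2 replicates of a screen are separate cultures of 1 cell line, per the labels. Some members of the lists are counted but not reported here.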

Additional observations from a re-analysis of the deposited data

How the results depend on the processing

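Against 211 called (142 higher, 69 lower) in the response interaction, limma on construct log2 ratios called 67 (44 and 23). The second GPS2 sgRNA alone called 136 (81 higher), the first position alone 134 (83 higher), the second position alone 133 (79 higher), 2022 alone 125 (68 higher) and 2023 alone 113 (69 higher, 44 lower). These settings use fewer constructs or libraries, except limma, whose cause was not tested. Without each replicate in turn, 145 to 177 were called, 91 to 115 higher and 54 to 64 lower. The lowest count of higher partners, 91, came without 2022 replicate 2. With no replicate block, 131 were higher and 65 lower in response, 312 were called in growth (306 lower, 6 higher), and GPS2 alone was at -0.39 and 0.51. The 7 higher growth interactions became 3 with libraries centred on the median pair, 2 with limma and 3 in 2023 alone, and 5 to 8 without each replicate. In growth, 286 to 293 were called and 279 to 288 lower without each replicate. GPS2 growth alone was 0.93 with TMM and 0.86 with DESeq2 in place of the non-targeting controls, and its response was -0.40 with both. Without each replicate it stayed between 0.48 and 0.54, and the response between -0.40 and -0.38. The slope of 1.22 was 1.26 with the first GPS2 sgRNA, 1.12 over partners with growth alone below -1 and 1.16 with the niraparib change scaled by the constants of the deposited scores, settings chosen after seeing the data. Without each replicate it was 1.22 to 1.24. After scaling by those constants, 140 of 142 higher and 69 of 69 lower partners had the same sign. The median interaction moved from 0.20 to 0.16 for the higher and from -0.18 to -0.30 for the lower partners. Over all 542 partners it moved from 0.05 to 0.02. As residuals from a curve through the GPS2 pairs, which removes the common slope, the sign turned for PARP1 (-0.45), PPP2R1A (-0.0091), BRCA1 (0.11), BRCA2 (0.022), TP53BP1 (-0.023), PPP2R2A (-0.071), SHMT2 (-0.012) and XRCC1 (0.11). The screen difference had 0 calls with no replicate block and with no filter on counts, with 28 and 30 at an unadjusted p below 0.05 in edgeR.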

Other observations

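Further partners with a response alone below -1 were NAMPT, WDHD1, DCTN5, RFC1 and SLX4, which were chosen after their values were seen. NAMPT, the enzyme that salvages nicotinamide into NAD, had a response of -2.21 in the GPS2 background and -1.97 alone, with an interaction of -0.24 that passed. WDHD1, a replisome adaptor, responded with -1.38 in the GPS2 background and -1.41 alone and did not pass. DCTN5, a dynactin subunit, was at -1.08 and -1.13, and RFC1, the large clamp loader subunit, at -1.18 and -1.08, and neither passed. SLX4, a nuclease scaffold, was at -1.20 and -1.10 and did not pass.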
